A study of Homo sapiens with 6 samples.

Results

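This account covers 10 genes that move or sense calcium at the membranes of the endoplasmic reticulum and of mitochondria: ATP2A2, ATP2A3, MCU, ITPR1, ITPR2, ITPR3, VDAC1, VDAC2, VDAC3 and STIM1. They were chosen by name, as 10 of the 18656 genes measured, because ATP2A2 and MCU are reported targets of the microRNA miR-25. MCU stands on the array under its older symbol CCDC109A. Every chosen gene was measured, by 267 of the 224320 probe sets that name a single gene, and none was filtered out. Expression was measured in AGS, an established human gastric adenocarcinoma cell line, on 6 Affymetrix Human Gene 1.0 ST arrays. AGS cells of 3 arrays were transfected with an oligonucleotide inhibitor of miR-25-3p, and those of the other 3 with a non-targeting control RNA. In both groups oligofectamine was the lipid carrier, the transfection was given again after 24 h, and RNA was harvested at 48 h from the first. The labels call the arrays of a group biological replicates, but do not say whether they came from separate cultures, so p-values measure the spread between these arrays. All cells are of 1 line, and the mature microRNA was not measured.

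Cells keep calcium low in the cytosol by pumping it into the endoplasmic reticulum, which is the work of the SERCA pumps, and release it through the IP3 receptors when a hormone or growth factor makes IP3. Part of what is released passes the outer mitochondrial membrane through the VDAC channels and the inner membrane through the uniporter, whose pore is MCU. STIM1 senses the level left in the store and opens entry channels at the cell surface when it falls. MicroRNA miR-25 has been reported to lower SERCA2 in the mouse heart and MCU in human cancer cells, so the comparison addresses whether these messages, and those of their partners, differ when the microRNA is inhibited.

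The inhibitor is directed at the first sequence shown here. The sequences, from RefSeq (GRCh38.p14, 5′ to 3′), show what the microRNA shares with the other mature human microRNAs of the same seed, the stretch by which a microRNA recognises its targets (bases 2 to 8, in capitals).
hsa-miR-25-3p: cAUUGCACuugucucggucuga
hsa-miR-92a-3p: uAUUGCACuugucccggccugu
hsa-miR-92b-3p: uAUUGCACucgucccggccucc
hsa-miR-32-5p: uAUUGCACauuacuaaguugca
hsa-miR-367-3p: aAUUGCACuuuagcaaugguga
hsa-miR-363-3p: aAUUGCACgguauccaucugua
These are the 6 distinct mature sequences with that seed in the RefSeq table. Counted position by position over 22 bases, miR-92a-3p matched miR-25-3p at 18, miR-92b-3p at 16, miR-32-5p at 13, miR-367-3p at 12 and miR-363-3p at 9. The mature miR-25-3p lies on the minus strand at chr7:100093571-100093592. On the plus strand lie miR-92b-3p at chr1:155195237-155195258 and the first copy of miR-92a-3p at chr13:91351361-91351382, whose second copy lies on the minus strand at chrX:134169544-134169565. The minus strand also holds miR-32-5p at chr9:109046272-109046293, miR-367-3p at chr4:112647877-112647898 and miR-363-3p at chrX:134169382-134169403. Levels of these microRNAs and target sites in messages were not analysed here.

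The 2 genes reported as miR-25 targets had nearly the same message level with and without the inhibitor. ATP2A2 differed by 0.043 on the log2 scale and MCU by -0.014, and neither passed the test. Of the 10 genes, 6 had a positive and 4 a negative difference, where 50.5% of all genes were positive, and 0 passed an adjusted p of 0.05 in limma, as did 0 of all genes (0%). None of the 10 reached an unadjusted p of 0.05, where 6.12% of all genes did. The size of a difference had a median of 0.061 among the 10 and of 0.091 among all genes, and the median signed difference was 0.044 against 0.0021. The groups of arrays did not overlap for 4 of the 10 genes, VDAC2 and VDAC3 with all inhibitor arrays above the controls and ITPR3 and STIM1 with all below, where 5.2% of all genes lay wholly above and 7.68% wholly below. All values are log2 expression after RMA, and a gene's value on an array is the mean over its probe sets, each of which reads a region about the size of an exon. Levels are compared between groups for a gene, not between genes, because probes differ in brightness.

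The markers of epithelium that fit this line were bright, with the means of 5 genes from 8.59 to 11.97 in inhibitor arrays and from 8.51 to 12.03 in control arrays. Of these, 4 overlapped between groups. EPCAM, an adhesion molecule of epithelial cells, had 10.55, 10.52 and 10.63 in inhibitor arrays, against 10.29, 10.27 and 10.51 in control arrays. Its inhibitor arrays all lay above the controls, by a difference of 0.21 (SE 0.098, unadjusted p 0.063, adjusted p 0.79 in limma), close in size to the largest differences among the 10 genes. Markers of other cells were dimmer. Leukocyte markers (4 genes) lay between 2.62 and 6.01 in inhibitor and 2.55 and 6.12 in control arrays, fibroblast markers (5 genes) between 2.37 and 6.37 against 2.28 and 6.39, and muscle markers (6 genes) between 4.20 and 7.40 against 4.10 and 7.51. None was listed at 0, and of these lists 1 leukocyte gene, CD14, had an unadjusted p under 0.05. All its inhibitor arrays lay above, by a difference of 0.46 (unadjusted p 0.017, adjusted p 0.79 in limma). CD68 and DES had all inhibitor arrays below, with a difference of -0.11 each, and the other genes of these lists overlapped. Over all genes 5.2% lay wholly above and 7.68% wholly below. Column medians lay between 6.02 and 6.07, and gene values of any pair of arrays had a Pearson correlation of 0.9904 to 0.9948.

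**Figure D1:**
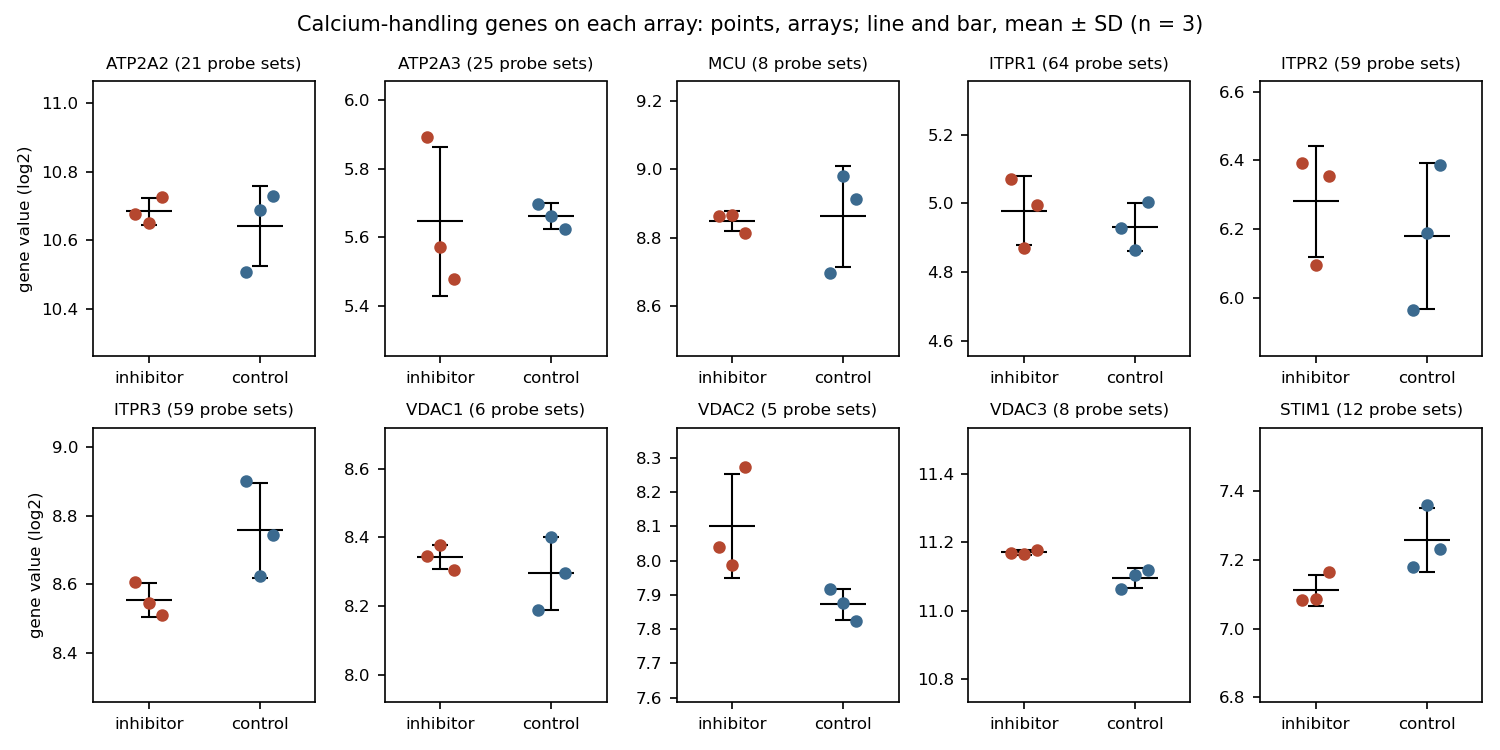
Gene value (log2) on each array for the 10 calcium-handling genes, inhibitor arrays left and control arrays right in each panel, with the mean and SD (n = 3) as a line and bar. Every panel spans the same height, and the groups stand apart only for ITPR3, VDAC2, VDAC3 and STIM1.

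The SERCA pumps use ATP to refill the endoplasmic reticulum, and ATP2A2 encodes the form present in most tissues. ATP2A2 had 10.68, 10.65 and 10.73 in inhibitor arrays, against 10.51, 10.69 and 10.73 in control arrays (21 probe sets). The inhibitor arrays lay inside the range of the controls, whose replicate 1 was the lowest of the 6. The means were 10.68 ± 0.040 in inhibitor and 10.64 ± 0.12 in control arrays (SD, n = 3 each), a difference of 0.043 (SE 0.093, adjusted p 0.94 in limma). The 95% interval of limma ran from -0.17 to 0.26, or from 0.889-fold to 1.19-fold. Leaving out 1 array gave between -0.023 (without control replicate 1) and 0.086 (without control replicate 3). The median of the probe sets, here and below the median of their levels on each array, gave 0.13. The median of their differences was 0.043. Of the 21 probe sets 15 were positive and 6 negative. In 1 all inhibitor arrays lay above the controls, where 5.89% of all probe sets did.

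A single probe set of ATP2A2, chosen after its values were seen, stood apart on 1 array. It read 10.82, 10.90 and 8.82 in inhibitor arrays, against 10.68, 10.97 and 10.88 in control arrays, so inhibitor replicate 3 was low there, although it was the highest inhibitor array for the gene as a whole. Without that probe set the difference of the gene was 0.078 (SE 0.10, adjusted p 0.89). ATP2A2 also holds 1 probe set that was much dimmer than the rest, at 5.24, 4.58 and 5.28 in inhibitor and 5.22, 5.24 and 5.75 in control arrays. The deposited table does not say which exon or splice form a probe set reads.

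ATP2A3 encodes SERCA3, a pump known from epithelial and blood cells. It had 5.89, 5.57 and 5.48 in inhibitor arrays, against 5.70, 5.66 and 5.62 in control arrays (25 probe sets). Inhibitor replicate 1 was the highest of all and the other inhibitor arrays were the lowest, so the inhibitor arrays enclosed the controls. The means were 5.65 ± 0.22 in inhibitor and 5.66 ± 0.038 in control arrays (SD, n = 3 each), a difference of -0.014 (SE 0.12, adjusted p 0.99 in limma, 95% interval -0.28 to 0.25). The sign turned without control replicate 1 (0.0039), without inhibitor replicate 2 (0.023) and without inhibitor replicate 3 (0.070), while without inhibitor replicate 1 the difference was -0.14. It also turned with the brightest probe set alone, to 0.50, the largest shift among the settings tried for this gene. Of 25 probe sets 11 were positive and 14 negative, between -0.74 and 0.93. All inhibitor arrays were above in 2, where 5.89% of all probe sets were.

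MCU forms the pore through which calcium enters the mitochondrial matrix. It had 8.86, 8.87 and 8.81 in inhibitor arrays, against 8.70, 8.98 and 8.91 in control arrays (8 probe sets). The inhibitor arrays again fell between the lowest and the highest control. The means were 8.85 ± 0.029 in inhibitor and 8.86 ± 0.15 in control arrays (SD, n = 3 each), a difference of -0.014 (SE 0.099, adjusted p 0.99 in limma). The 95% interval ran from -0.24 to 0.21, or from 0.846-fold to 1.16-fold. The sign turned without control replicate 2 (0.044), without control replicate 3 (0.011) and without inhibitor replicate 3 (0.0025), and without control replicate 1 the difference was -0.097.

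The probe sets of MCU were split, with 5 positive and 3 negative between -0.20 and 0.12. The only one without overlap read 9.92, 9.90 and 9.83 in inhibitor arrays, against 10.05, 10.10 and 10.09 in control arrays, and lay below the controls. Its difference of -0.20 was the lowest of the 8 and did not pass (unadjusted p 0.17 in limma). Over all probe sets 5.89% lay wholly above and 6.32% wholly below.

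**Figure D2:**
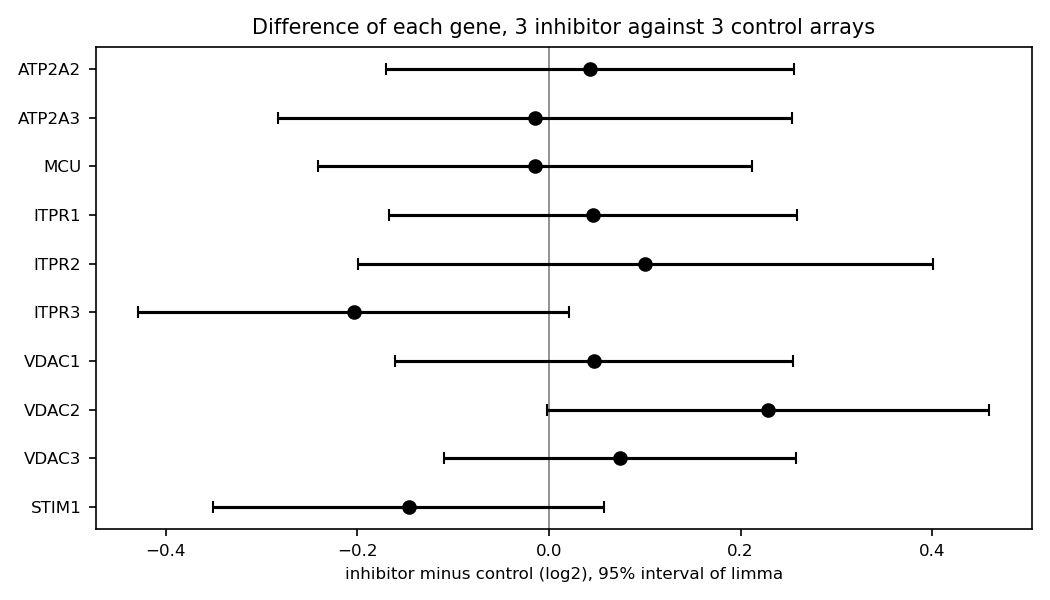
Difference of inhibitor minus control (log2) for each of the 10 genes, with limma's 95% interval as a bar. All 10 intervals cross 0, and the points run from -0.20 for ITPR3 to 0.23 for VDAC2.

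The IP3 receptors are the release channels of the endoplasmic reticulum, and ITPR3 is the form often noted in epithelial cells. ITPR3 had 8.61, 8.55 and 8.51 in inhibitor arrays, against 8.90, 8.63 and 8.75 in control arrays (59 probe sets). Every inhibitor array was below every control array, with the closest pair almost touching. The means were 8.55 ± 0.049 in inhibitor and 8.76 ± 0.14 in control arrays (SD, n = 3 each), a difference of -0.20 (SE 0.099), or 0.868-fold. It did not pass in limma (unadjusted p 0.070, adjusted p 0.79), and the 95% interval ran from -0.43 to 0.021. Without control replicate 1, the highest array, the difference was -0.13.

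The probe sets of ITPR3 leaned one way. Of 59, 55 were negative and 4 positive. All inhibitor arrays were below in 10 and above in 0, where 6.32% and 5.89% of all probe sets were. Of the 267 probe sets of the 10 genes, 16 lay wholly below and 12 wholly above. In the gene as a whole 93.2% were negative, and 10 of the 3063 genes with at least 20 probe sets (0.326%) had a share that high or higher, ITPR3 included. ITPR3 was singled out for this after its values were seen, and its probe sets read the same RNA on the same arrays, so they are not separate evidence. Without control replicate 1 the count was 44 negative and 14 positive. With inhibitor replicate 3 left out it was 50 and 9, and between 54 and 56 were negative without any other array. The lowest probe set read 6.54, 6.57 and 6.65 in inhibitor arrays, against 7.01, 6.96 and 7.83 in control arrays, a difference of -0.68 (SE 0.26, unadjusted p 0.041, adjusted p 0.80 in limma), with control replicate 3 high.

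ITPR1 and ITPR2, the other two IP3 receptor genes, overlapped between groups. ITPR1, the form best known from neurons, had 5.07, 4.87 and 4.99 in inhibitor arrays, against 4.93, 4.86 and 5.00 in control arrays (64 probe sets). The difference was 0.046 (SE 0.093, adjusted p 0.94 in limma, 95% interval -0.17 to 0.26). Leaving out 1 array gave between 0 (without inhibitor replicate 1) and 0.10 (without inhibitor replicate 2), and leaving out the dimmest 30% of probe sets, which removed 17 of the 64, gave -0.0048. ITPR2 had 6.39, 6.09 and 6.35 in inhibitor arrays, against 5.96, 6.19 and 6.39 in control arrays (59 probe sets). The difference was 0.10 (SE 0.13, adjusted p 0.90 in limma, 95% interval -0.20 to 0.40), and leaving out 1 array gave between -0.0070 (without control replicate 1, the lowest array) and 0.20 (without control replicate 3).

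Single probe sets of ITPR1 and ITPR2 scattered far more widely than those of ITPR3. Those of ITPR1 lay between -1.40 and 1.06 and those of ITPR2 between -1.61 and 1.52, against -0.68 and 0.15 for ITPR3, and their lowest mean levels were 1.29, 2.61 and 6.04. The members' probe sets with the smallest p on either side of 0 came from these genes. In ITPR1, 1 probe set read 6.15, 6.56 and 6.50 in inhibitor arrays, against 5.88, 5.69 and 5.56 in control arrays, a difference of 0.69 (SE 0.18, adjusted p 0.78 in limma). In ITPR2, 1 read 7.14, 6.88 and 7.15 in inhibitor arrays, against 6.63, 6.05 and 6.41 in control arrays, a difference of 0.69 (SE 0.20, adjusted p 0.78). Another of ITPR2 pointed the other way, with 5.15, 3.62 and 4.77 in inhibitor arrays, against 6.27, 5.69 and 6.40 in control arrays, a difference of -1.61 (SE 0.43, adjusted p 0.78). The groups did not overlap in any of these, in opposite directions within ITPR2. Of all 267 probe sets, 8 were higher at an unadjusted p under 0.05 in limma and 2 lower. Of all probe sets on the arrays 3.11% were higher and 3.09% lower, 6.21% in both directions together. Of the 267, 0 passed the adjusted threshold, as did 0 of all (0%).

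**Figure D3:**
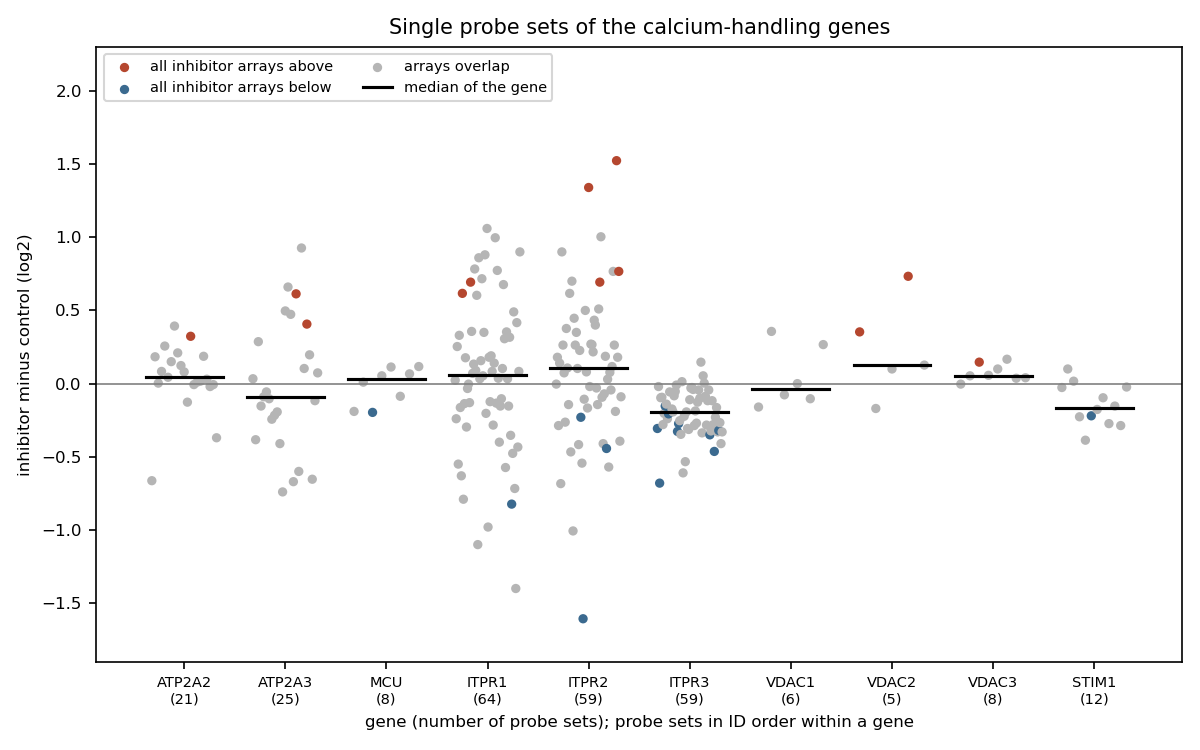
Difference of inhibitor minus control (log2) for every probe set of the 10 genes, in identifier order within a gene. The black line is the median of a gene's differences, and colour marks probe sets whose groups of arrays do not overlap. ITPR1 and ITPR2 scatter on both sides of 0, while 55 of the 59 probe sets of ITPR3 lie below it.

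The VDAC genes encode the pores of the outer mitochondrial membrane, which pass metabolites as well as calcium. VDAC2 had 8.04, 7.99 and 8.27 in inhibitor arrays, against 7.92, 7.88 and 7.82 in control arrays (5 probe sets). Every inhibitor array was above every control array, and inhibitor replicate 3 was the highest. The means were 8.10 ± 0.15 in inhibitor and 7.87 ± 0.046 in control arrays (SD, n = 3 each), a difference of 0.23 (SE 0.10), or 1.17-fold, the largest among the 10. It did not pass in limma (unadjusted p 0.052, adjusted p 0.79, 95% interval -0.0025 to 0.46). Without inhibitor replicate 3 the difference was 0.14.

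Much of the VDAC2 difference came from dimmer probe sets. The probe set with the largest difference read 6.50, 6.50 and 7.19 in inhibitor arrays, against 6.01, 6.03 and 5.95 in control arrays, and without it the gene's difference was 0.10 (SE 0.090). The brightest read 11.19, 11.33 and 11.54 in inhibitor arrays, against 11.31, 11.22 and 11.23 in control arrays, and overlapped. Alone it gave 0.10, while the median of the probe set levels on each array gave 0.47 (adjusted p 0.83 in limma). The median of the 5 probe sets' differences was 0.13. One further probe set has an identifier far from the others and read 10.77, 10.95 and 11.02 in inhibitor arrays, against 10.67, 10.83 and 10.86 in control arrays. Without it the difference was 0.25. VDAC genes have processed pseudogenes, so which locus a probe set reads is uncertain.

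VDAC3 had 11.17, 11.16 and 11.18 in inhibitor arrays, against 11.06, 11.10 and 11.12 in control arrays (8 probe sets). The inhibitor arrays were all above the controls and close to each other. The means were 11.17 ± 0.0073 in inhibitor and 11.10 ± 0.028 in control arrays (SD, n = 3 each), a difference of 0.075 (SE 0.081), or 1.05-fold. It did not pass in limma (unadjusted p 0.38, adjusted p 0.87), where the gene's own small spread is drawn toward that of all genes. Of 8 probe sets 7 were positive, none above 0.17, and 1 lay wholly above the controls, where 5.89% of all probe sets did. VDAC1, the most studied form, had 8.35, 8.38 and 8.30 in inhibitor arrays, against 8.19, 8.40 and 8.30 in control arrays (6 probe sets). It overlapped, with a difference of 0.047 (SE 0.091, adjusted p 0.93 in limma), which lay between -0.0064 (without control replicate 1) and 0.10 (without control replicate 2) when 1 array was left out and was -0.077 with the brightest probe set.

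STIM1, the calcium sensor in the membrane of the endoplasmic reticulum, had 7.08, 7.09 and 7.16 in inhibitor arrays, against 7.18, 7.36 and 7.23 in control arrays (12 probe sets). Every inhibitor array was below every control array by a narrow margin. The means were 7.11 ± 0.046 in inhibitor and 7.26 ± 0.093 in control arrays (SD, n = 3 each), a difference of -0.15 (SE 0.090), or 0.904-fold. It did not pass in limma (unadjusted p 0.14, adjusted p 0.79, 95% interval -0.35 to 0.058). Of 12 probe sets 10 were negative and 2 positive, and 1 had all inhibitor arrays below, where 6.32% of all probe sets did. Without control replicate 2, the highest array, the difference was -0.095, and the median of the probe set levels on each array gave -0.082. The median of the probe sets' differences was -0.165.

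A wider list of 47 genes of the same calcium circuit was set beside these 10. Of these, 27 had a positive and 20 a negative difference, with a median of 0.014 against 0.0021 for all genes. None passed the adjusted threshold, and 1 was higher and 1 lower at an unadjusted p under 0.05, where 2.95% and 3.16% of all genes were. In 2 of the 47 genes all inhibitor arrays lay above the controls and in 3 all lay below, where 5.2% and 7.68% of all genes did.

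The partners of the uniporter and the paralogs named here overlapped between groups. MCUB, a pore subunit that dampens the uniporter, had 8.48, 8.54 and 8.56 in inhibitor arrays, against 8.16, 8.46 and 8.50 in control arrays, a difference of 0.15 (SE 0.11, adjusted p 0.82 in limma). MICU2, a calcium-sensing regulator of the uniporter, had 8.30, 8.15 and 8.15 in inhibitor arrays, against 7.62, 8.11 and 8.25 in control arrays, a difference of 0.21 (SE 0.16, adjusted p 0.82). In both genes control replicate 1 was low and control replicate 3 was the highest control. Without replicate 1 the differences were 0.042 for MCUB and 0.020 for MICU2, and without replicate 3 they were 0.21 for MCUB and 0.34 for MICU2 (unadjusted p 0.061 in limma). The brightest probe set gave -0.043 for MCUB. SMDT1, which encodes the EMRE subunit of the uniporter, had a difference of 0.012 (SE 0.087), which lay between -0.028 and 0.038 when 1 array was left out and was 0.11 with the brightest probe set. STIM2, a second store sensor, had 7.32, 7.20 and 7.44 in inhibitor arrays, against 7.09, 7.24 and 7.41 in control arrays, a difference of 0.078 (SE 0.11, adjusted p 0.90), opposite in sign to STIM1 without a test of that contrast. Leaving out 1 array gave STIM2 between 0.00024 (without control replicate 1) and 0.16 (without control replicate 3), and the brightest probe set gave 0.30 where the median of probe sets gave -0.023. ATP2A1, the SERCA pump of fast skeletal muscle, was dim, at 4.32 ± 0.19 in inhibitor and 4.28 ± 0.077 in control arrays (SD, n = 3 each), and its difference of 0.042 (SE 0.11) was -0.061 without inhibitor replicate 2 and 0.13 without inhibitor replicate 3.

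Among pumps, chaperones and contact-site genes, those with the smallest p also did not pass. ITPRIP, an IP3 receptor-binding protein, had 5.28, 4.93 and 4.78 in inhibitor arrays, against 4.38, 4.86 and 4.53 in control arrays, a difference of 0.41 (SE 0.16, unadjusted p 0.034, adjusted p 0.79 in limma) with overlapping groups. The difference of ITPRIP was 0.013 with the brightest probe set and 0.11 without the dimmest 30% of probe sets, and it lay between 0.26 and 0.54 when 1 array was left out. ATP2C1, the Golgi calcium and manganese pump, had 8.88, 8.82 and 9.00 in inhibitor arrays, against 8.57, 8.59 and 8.85 in control arrays, a difference of 0.23 (SE 0.11, adjusted p 0.79), which was -0.050 with the brightest probe set. RCN2, a calcium-binding protein of the endoplasmic reticulum, had a difference of 0.21 (SE 0.10, adjusted p 0.79), which was 0.35 with the median of its probe sets (unadjusted p 0.033). On the other side, PLN, the SERCA inhibitor of heart muscle, had 2.54, 2.21 and 2.10 in inhibitor arrays, against 2.58, 2.69 and 2.65 in control arrays, a difference of -0.36 (SE 0.12, unadjusted p 0.018, adjusted p 0.79). Its brightest probe set gave -0.98 (unadjusted p 0.0048, adjusted p 0.77 in limma) and the median of its probe sets -0.082 (unadjusted p 0.59). PLN was dim, within the span of 348 olfactory receptor genes, which are silent in most tissues and whose means ran from 1.37 to 5.57 in inhibitor and from 1.47 to 5.59 in control arrays. The means of ITPR1, ITPRIP and ATP2A1 also lay in that span in both groups. Those of ITPR1 and ITPRIP were above 4.29, the 95th percentile of the receptor genes. Probes differ in brightness, so that span is only a guide.

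RMDN3, which tethers mitochondria to the endoplasmic reticulum, had 6.77, 6.66 and 6.73 in inhibitor arrays, against 6.89, 6.90 and 6.91 in control arrays. All inhibitor arrays were below, by a difference of -0.18 (SE 0.083, unadjusted p 0.056, adjusted p 0.79 in limma). The brightest probe set of RMDN3 gave -0.013 (unadjusted p 0.93) and the median of its probe sets -0.11 (unadjusted p 0.45). SLC8A1, a sodium-calcium exchanger of the plasma membrane, had -0.21 (SE 0.13, adjusted p 0.79), which was 0.33 with its brightest probe set and between -0.31 and -0.10 when 1 array was left out. By role, all 3 ryanodine receptors, all 3 pumps of the endoplasmic reticulum and Golgi and both leak genes were positive, and both pump regulators were negative. Over all genes 50.5% were positive. These sets hold 2 or 3 genes each, none of which passed the adjusted threshold, and the signs were not tested as sets. With the brightest probe set the pumps ATP2A1 (-0.13) and ATP2C1 (-0.050) turned negative. SLC8A1 and the 3 ryanodine receptors had means within the span of the olfactory receptor genes in both groups. So did ATP2C2, SLN, ATP2B2, ATP2B3, SLC8A2, SLC8A3, ORAI3 and MICU3, beside PLN, ATP2A1 and ITPRIP named above. Both pump regulators and, of the pumps, ATP2A1 and ATP2C2 were thus as dim as genes silent in most tissues. The calcium-binding chaperones had 5 positive and 3 negative, store-operated entry 2 and 3, contact-site genes 1 and 4, IP3 receptor partners 4 and 1, uniporter and mitochondrial exchange genes 5 and 2, and plasma membrane pumps and exchangers 2 and 5.

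**Figure D4:**
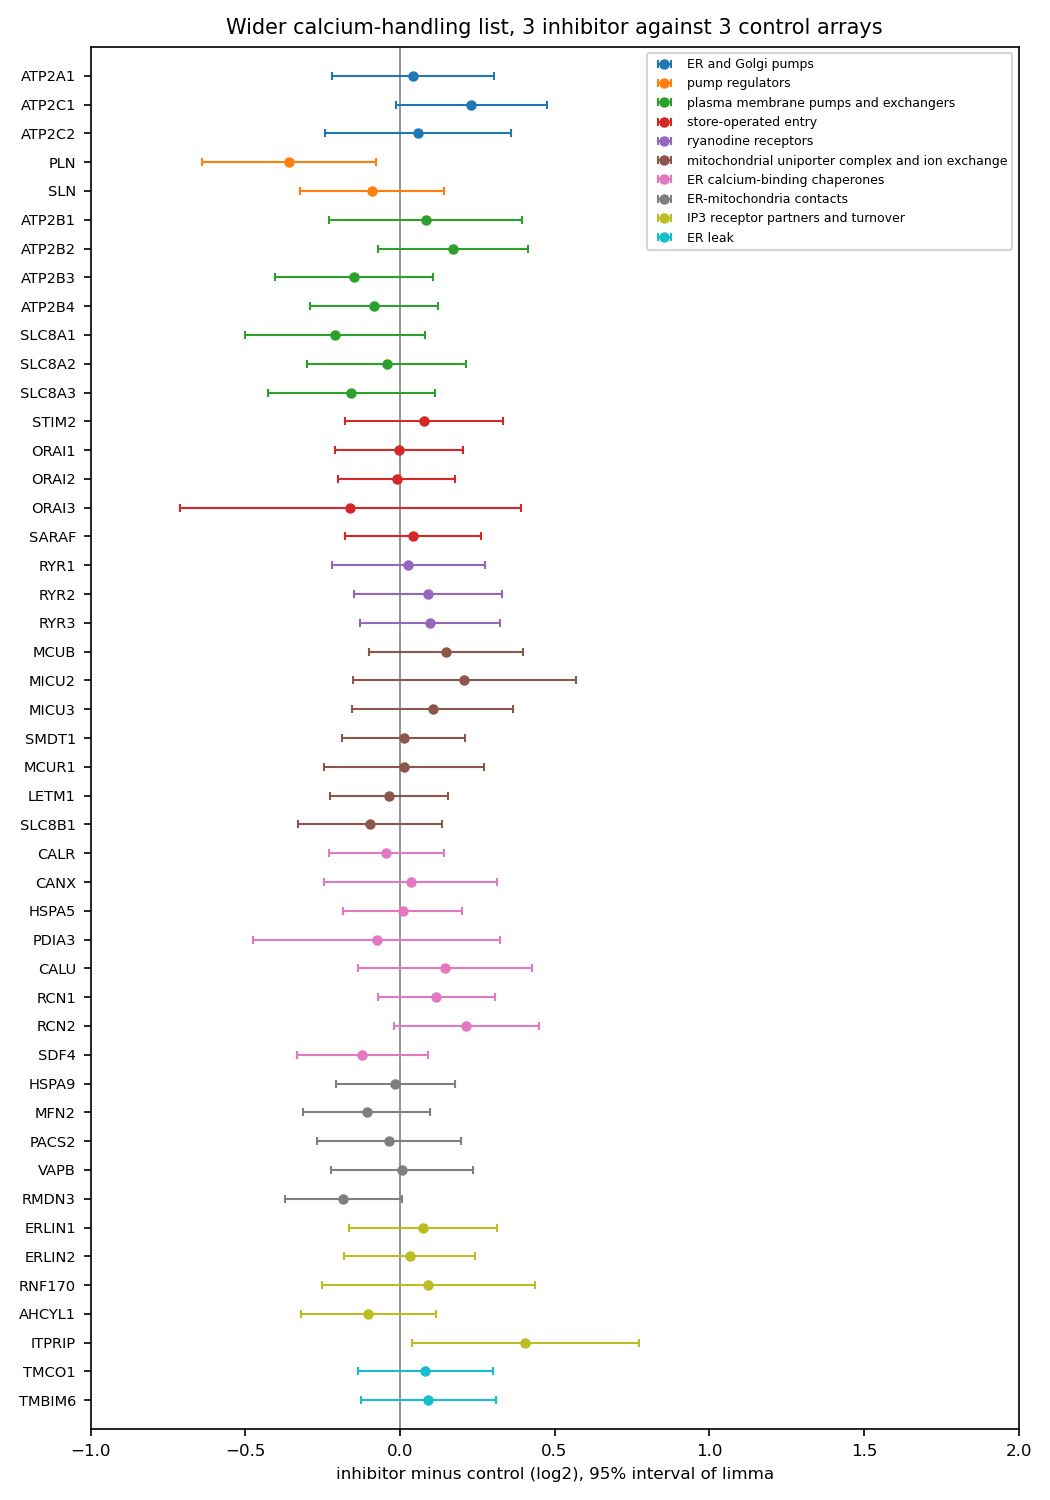
Difference of inhibitor minus control (log2) for the 47 genes of the wider list, with limma's 95% interval as a bar and colour for the role. The points run from -0.36 for PLN to 0.41 for ITPRIP, whose intervals are the only ones that do not cross 0.

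In simulated arrays with the spread of these data, a true log2 difference of 0.3 was called for 0.8% of genes, one of 0.5 for 17.8% and one of 1 for 89.7%. Each run held 200 changed genes, which eases the adjusted threshold, whereas 0 genes passed here. These shares may therefore be too high for this series. Differences of the size seen for VDAC2 or ITPR3 would thus seldom be called with 3 arrays a group, and the intervals give the range that the arrays allow. Protein levels, which a microRNA can also lower, were not measured, so a change in protein alone would not show.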

How the data were processed

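The authors deposited log2 expression values for 257430 probe sets on 6 arrays, processed by RMA. The submitters' processing notes also name Transcriptome Analysis Console and Affymetrix Expression Console and give no versions. Since RMA equalises the distributions of arrays, a shift common to most genes would not show. Scanner files were not used here, and precision is limited by the number of arrays. Symbols came from the platform annotation and were updated through RefSeq (GRCh38.p14). Of the probe sets, 224320 had 1 symbol, 10159 several and 22951 none. Of the symbols, 16068 were current, 2533 were updated and 100 kept. No genome build is given for the probe sets, so coordinates are printed only for the microRNAs and not for the genes compared.

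Gene values were means of probe sets without a filter on dim genes. Inhibitor and control arrays were compared with lmFit and eBayes in limma 3.58.1 (R 4.3.3), without a replicate block, with Benjamini-Hochberg adjustment over all 18656 genes or 224320 probe sets and a threshold of 0.05. The fit was tested on simulated arrays (20 runs, 200 genes changed, 4.65% false calls). Named are all 10 genes, the 3 wider-list genes with the smallest p on each side of 0, fixed partners and paralogs, and the 2 probe sets with the smallest p on each side. Members and lists were chosen with earlier results of these data known. Alternatives covered the replicate block, leaving out arrays, 3 normalizations, 3 variance settings, 4 ways of combining probe sets and a filter on dim genes.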

Additional observations from a re-analysis of the deposited data

How the results depend on the processing

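No gene was called under the alternatives, with 1 exception: when single arrays were left out, 0 to 1 genes were called higher, namely RGPD4 in the fit without control replicate 3. No probe set was called under any setting run on them, with 11877 to 16142 of the 224320 probe sets at an unadjusted p under 0.05 in the settings that kept them all. The replicate block gave 0 genes, with 1161 at an unadjusted p under 0.05 against 1141 without it, and changed no call. The labels state no pairing, so the arrays were treated as unpaired. Arrays sharing a number had correlations of -0.032, -0.040 and 0.17 across genes between their departures from the group mean. The highest for any inhibitor array with any control array was 0.21. ITPR3, VDAC2, VDAC3 and STIM1 kept their sign in all settings, between -0.27 and -0.057, 0.10 and 0.47, 0.059 and 0.10, and -0.22 and -0.082. Since the groups of these genes did not overlap, leaving out 1 array could not turn their sign. The replicate block, eBayes trend and eBayes robust leave a difference unchanged. The kept signs in those settings were thus fixed in advance. Of the 10 genes, 0 to 2 had an unadjusted p under 0.05 in the settings, 2 of them with eBayes trend and with array weights. Quantile normalization, cyclic loess and median centring turned no sign of the 10 genes. Leaving out 1 array turned the sign of ATP2A2 (range -0.023 to 0.086), ATP2A3 (-0.14 to 0.070), ITPR2 (-0.0070 to 0.20), MCU (-0.097 to 0.044), VDAC1 (-0.0064 to 0.10), ATP2A1 (-0.061 to 0.13) and SMDT1 (-0.028 to 0.038). The brightest probe set turned ATP2A1 (-0.13), ATP2A3 (0.50), ATP2C1 (-0.050), MCU (0.053), MCUB (-0.043), SLC8A1 (0.33) and VDAC1 (-0.077). The median of probe set levels on each array turned ITPR2 (-0.0033), MCU (0.013), SMDT1 (-0.060) and STIM2 (-0.023). The median of the differences of ITPR2's probe sets was 0.10. Array weights turned ATP2A3 (0.0076), and leaving out the dimmest 30% of probe sets turned ITPR1 (-0.0048) and SLC8A1 (0.33). The cause was not tested. Leaving out single probe sets of ATP2A2 and VDAC2 was chosen after seeing the data.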

Other observations

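Control replicate 1 was the lowest array for 5 of the 10 genes (ATP2A2, MCU, ITPR2, VDAC1 and VDAC3) and the highest for ITPR3. Its mean correlation with the other arrays over all genes was 0.9915, against 0.9933 to 0.9938 for those, and its part in the differences beyond the values without it was not tested. The spread between replicates differed widely among the genes. Ranked among all genes, the residual SD of VDAC3 lay at percentile 0.198 and that of STIM1 at percentile 13.6, while ATP2A3 stood at percentile 61.4 and ITPR2 at percentile 75.1.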
